A study of Mus musculus with 7 samples.

Results

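Shelterin is the protein complex that coats the TTAGGG repeats at chromosome ends and keeps them from being read as broken DNA, and telomerase is the enzyme that adds those repeats. In shelterin, Terf1 and Terf2 bind double-stranded repeats, Terf2ip rides on Terf2, Tinf2 joins both DNA binders to Acd, and Acd carries the Pot1 proteins that cover the single-stranded overhang. Mice carry a duplicated Pot1 gene, and in mouse cells Pot1a is known for restraining the ATR damage signal and Pot1b for limiting resection of the overhang. Telomerase consists of the reverse transcriptase Tert, the RNA template Terc and the H/ACA proteins, among them Dkc1 and Nop10, which also modify ribosomal RNA. In most adult tissues Tert message is very low.

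The genes described are 7 shelterin genes (Terf1, Terf2, Terf2ip, Tinf2, Acd, Pot1a and Pot1b) and 3 telomerase genes (Dkc1, Nop10 and Tert), taken by symbol, and all 10 were found among the 22027 genes of the table. Terc was not analysed here. The RNA came from left ventricles of mice whose strain label is C57BL/6J and whose age was 12 months. There were 4 libraries labelled G3, described as telomerase-deficient, and 3 labelled G3 PGC1aOE, whose mice were telomerase-deficient too and overexpressed PGC1alpha, so telomerase deficiency is shared by both groups. The labels do not say which telomerase gene is inactive, in which cells PGC1alpha was raised or whether animals were littermates. Each library also has a code in its description, whose text contains G2 in 3 libraries (G3 1, G3 3, G3 PGC1aOE 1) and contains G3 in the other 4. The labels do not explain it.

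Libraries held 10106705 to 16056740 counted reads, and mitochondrially encoded genes took 24.7% to 42.4% of them. Ppargc1a is the gene of PGC1alpha. It measured 89.1 ± 25.4 CPM (SD, n = 4) in G3 and 68.3 ± 30.8 CPM (SD, n = 3) in G3 PGC1aOE, and the groups overlapped. In edgeR its log2 fold change, G3 PGC1aOE minus G3, was −0.38 with an interval from −1.12 to 0.36 (adjusted p = 0.847). Its message thus showed neither the labelled overexpression nor a resolved fall. Every direction below rests on the label alone. Ventricular cardiomyocyte markers summed to 42393 to 57307 CPM in G3 and 44110 to 69849 CPM in G3 PGC1aOE, with none of the 7 markers at 0. The groups did not overlap in summed Schwann cell markers, at 4.31 to 6.66 CPM in G3 against 8.91 to 16.9 CPM, while the sums of the other marker lists overlapped. Of the 3 Schwann cell markers 2 were tested and 0 called. Among single tested genes, 2.19% were higher in G3 PGC1aOE without overlap. The 6 fibroblast markers summed to 465 to 932 CPM against 835 to 1363 CPM, the 5 endothelial markers to 385 to 501 CPM against 391 to 597 CPM, the 6 leukocyte markers to 39.3 to 72.0 CPM against 63.2 to 75.3 CPM, and the 8 markers of dividing cells to only 1.82 to 4.51 CPM against 1.40 to 8.30 CPM. Atrial markers summed to 72.3 to 2803 CPM against 468 to 3923 CPM, and adipocyte markers to 0.54 to 6.87 CPM against 1.94 to 14.5 CPM. In whole tissue, fewer cells of a type and less RNA per cell cannot be told apart, and the part of cell makeup in the values below was not tested.

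Tert was at the floor of detection. Its count was 0 in 6 of 7 libraries and 1 in G3 PGC1aOE 2, 1 read among the 89985656 counted over all libraries. A count of 0 allows up to 3 reads, which is 0.187 CPM in the deepest library and 0.297 CPM in the shallowest (counting error only). These 2 values use library totals without TMM scaling, unlike the other CPM values given here. Tert was therefore left out of the tests by the filter on low counts, and no fold change is given for it. The other 9 genes passed the filter.

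Per unit of gene length, the 9 detected genes spanned a wide range. Nop10, Terf1 and Pot1b held the same places in all 7 libraries, while the order of the genes between them varied. The unit here is the deposited FPKM, reads scaled to gene length and to the library's total. Nop10, the small core protein of H/ACA particles, was highest at 46.5 ± 13.1 FPKM (SD, n = 7), above every other member in all 7 libraries. Dkc1, the pseudouridine synthase of the same particles, followed at 15.7 ± 3.93 FPKM (SD, n = 7). Among shelterin genes Terf2 was highest at 8.71 ± 1.52 FPKM (SD, n = 7), and it lay above Tinf2 in 7 of 7 libraries. Tinf2 at 6.07 ± 1.33 FPKM, Acd at 5.79 ± 1.76 FPKM and Pot1a at 4.81 ± 0.59 FPKM (SD, n = 7 each) did not separate. Tinf2 exceeded Acd in 5 of 7 libraries and Acd exceeded Pot1a in 4 of 7. Terf2ip, at 4.34 ± 0.79 FPKM (SD, n = 7), lay below Pot1a in 6 of 7. Terf1 at 2.14 ± 0.32 FPKM and Pot1b at 1.08 ± 0.38 FPKM (SD, n = 7 each) took the lowest places in every library.

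**Figure D1:**
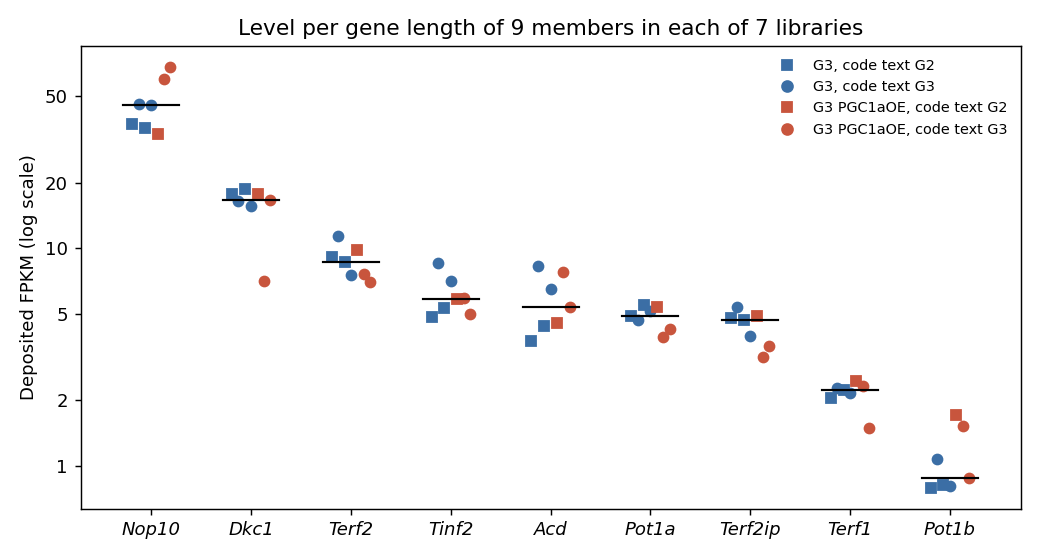
Deposited FPKM (log axis) of the 9 detected members in order of their mean, 1 point per library, coloured by group and shaped by code text, with a line at the median of 7 libraries. Nop10 lies above Dkc1 in all 7 libraries, and Terf1 lies above Pot1b in all 7.

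The middle of this order depends on the gene length used. The length implied by the deposited FPKM is 862 bases for Dkc1, while the longest Dkc1 transcript of GENCODE M21 has 2804 bases. With longest transcripts in place of the deposited lengths, a choice made after seeing the data, Dkc1 had 4.83 and Terf2 had 5.66 on that scale, Dkc1 thereby moving below Terf2. With all exon bases of M21 in their place, Dkc1 had 3.285 and Terf2 had 3.283, nearly level, and Dkc1 kept rank 2. Terf2ip rose from the rank of 7 to that of 4 with both. Nop10 stayed first, and Terf1 and Pot1b kept ranks 8 and 9.

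The ratios of Terf1 and of Terf2ip to Terf2 varied less over the libraries than the other ratios computed between members. Per unit of length, the ratio of Terf1 to Terf2 ran from 0.201 to 0.307 over the 7 libraries, with a median of 0.252. The ratio of Terf2ip to its partner Terf2 ran from 0.417 to 0.541. The ratio of Acd to Tinf2 ran from 0.774 to 1.32 and that of Pot1b to Pot1a from 0.148 to 0.387. The ratio of Dkc1 to Nop10 ran from 0.118 to 0.532, the lowest value being that of G3 PGC1aOE 2.

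Between the labelled groups no member passed the test. In edgeR's quasi-likelihood test, 0 of 12674 genes had an adjusted p under 0.05 (percent called: 0), while 548 genes (4.32%) had an unadjusted p under 0.05 and DESeq2 called 3 (0.0237%), none of them a member. Of the 9 tested members, 4 had a fitted difference above 0 and 5 below, with a median log2 fold change of −0.063, beside a median of 0.0076 over all tested genes. Log2 fold changes are G3 PGC1aOE minus G3. The labels do not say whether the libraries come from separate animals, so p-values measure only the spread between these samples.

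The DNA-binding core of shelterin was nearly flat. Terf2, which shapes and protects the telomere end, had 14.6, 17.4, 15.1 and 13.8 CPM in G3 1 to 4 and 15.2, 14.3 and 14.3 CPM in G3 PGC1aOE 1 to 3. All 3 libraries labelled G3 PGC1aOE lay inside the range of G3. The log2 fold change of Terf2 came to −0.063 (SE 0.19, 95% interval −0.48 to 0.36; edgeR, adjusted p = 0.947), so a change of more than 1.28-fold upward or below 0.716-fold lay outside the interval. Terf1, which regulates repeat length and replication through the telomere, had 3.65, 3.92, 4.31 and 4.43 CPM in G3 and 4.27, 4.88 and 3.39 CPM in G3 PGC1aOE, from only 40 to 67 reads a library. Its highest and its lowest library were both labelled G3 PGC1aOE. The log2 fold change was 0.035 with an interval from −0.54 to 0.61, and its sign turned when G3 PGC1aOE 2 was left out (−0.092) or when FPKM was used (−0.055 with a pseudocount of 1).

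Terf2ip, the Rap1 protein that binds Terf2 and also acts on genes away from telomeres, had 15.9, 17.1, 17.0 and 15.0 CPM in G3 and 15.8, 12.4 and 15.2 CPM in G3 PGC1aOE. Its lowest library was G3 PGC1aOE 2 and the groups overlapped. The fitted log2 difference came to −0.17 (SE 0.19; edgeR, adjusted p = 0.862; exact permutation p = 0.171, 2-sided over 35 splits).

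The bridging genes varied more within groups than between them. Acd, the TPP1 protein that recruits telomerase, had 4.92, 10.5, 6.28 and 9.77 CPM in G3 1 to 4 and 5.82, 12.0 and 8.98 CPM in G3 PGC1aOE 1 to 3. Both groups held low and high libraries, and Acd had a log2 fold change of 0.18 (interval −0.55 to 0.92). Without G3 PGC1aOE 2 it was −0.091. Tinf2, the TIN2 scaffold, had 7.75, 13.2, 9.24 and 13.0 CPM in G3 and 9.08, 11.1 and 10.2 CPM in G3 PGC1aOE, with a log2 fold change of −0.096 and an interval from −0.64 to 0.45. The G3 libraries enclosed all 3 of the other group.

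Acd and Tinf2 each share exons with a gene on the other strand. In GENCODE M21, 1208 of 3625 Acd exon bases lie in exons of Carmil2 and 1540 of 4938 Tinf2 exon bases lie in exons of Gmpr2. The library kit does not mark strand, so reads there cannot be assigned. The lengths implied by the deposited FPKM are shorter, 1425 bases for Acd and 1736 for Tinf2. What share of the counted exons lies in these overlaps is therefore not known. Carmil2 measured 0.34 ± 0.35 CPM in G3 (SD, n = 4) and 0.94 ± 0.39 CPM in G3 PGC1aOE (SD, n = 3), while Gmpr2 was at a level like that of Tinf2, with 10.6 ± 1.73 CPM (SD, n = 4) and 13.1 ± 3.24 CPM (SD, n = 3).

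**Figure D2:**
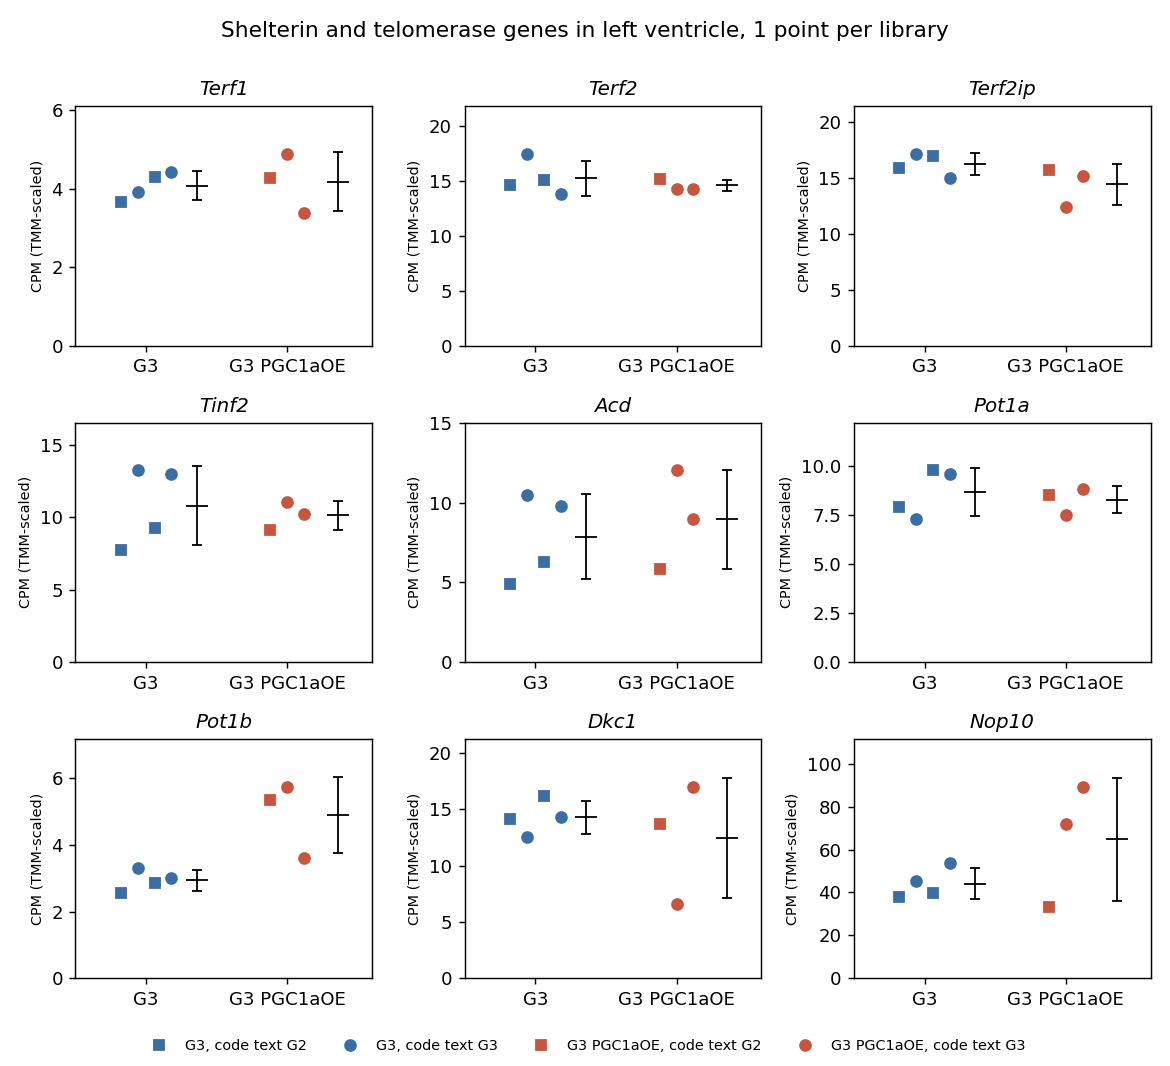
CPM with TMM-scaled totals of each of the 9 tested members by labelled group, 1 point per library, squares for code text G2 and circles for code text G3, with the mean and SD beside each group. Pot1b shows no overlap between the groups, Dkc1 has 1 low library at 6.63 CPM, and the squares lie below the circles for Tinf2, Acd and Nop10.

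Pot1b was the only tested member whose groups did not overlap in CPM with TMM-scaled totals. In deposited FPKM they overlapped, with G3 PGC1aOE 3 at 0.872 FPKM below G3 2 at 1.07 FPKM. Pot1b had 28, 45, 32 and 40 reads in G3 1 to 4 and 69, 79 and 49 reads in G3 PGC1aOE 1 to 3, which is 2.55, 3.33, 2.87 and 3.01 CPM against 5.36, 5.75 and 3.61 CPM. G3 PGC1aOE 1 and 2 stood well above all G3 libraries, and G3 PGC1aOE 3 lay just above the highest of them. The means were 2.94 ± 0.32 CPM (SD, n = 4) and 4.91 ± 1.14 CPM (SD, n = 3), a fitted fold of 1.66 with a 95% interval from 1.08 to 2.56. The adjusted p was 0.847 in edgeR, and the exact permutation p was 0.0286, the smallest that 35 splits can give. In CPM, groups did not overlap with G3 PGC1aOE higher in 2.19% of all tested genes, beside 1 of 9 members. The log2 CPM of Pot1b differed by 0.85 between the groups in the set of libraries coded with a number under 80, and by 0.58 in the set from 80 upward, signs that the lack of overlap in CPM fixes. In the set under 80 the only library of its label is G3 PGC1aOE 1, and in the set from 80 upward the only G3 library is G3 4.

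Pot1a, the paralog, did not share this pattern. It had 7.93, 7.32, 9.78 and 9.62 CPM in G3 and 8.54, 7.50 and 8.83 CPM in G3 PGC1aOE. All libraries of the second group lay inside the range of the first, and the fitted log2 difference came to −0.063 (interval −0.55 to 0.42; edgeR, adjusted p = 0.953). The ratio of Pot1b to Pot1a per unit of length was 0.148 to 0.230 in G3 and 0.206 to 0.387 in G3 PGC1aOE, so these ratios overlapped. The difference between the paralogs in their response was not tested.

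Because the paralogs could exchange reads in alignment, their coding sequences were compared. The stretch where they are most alike is shown, bases 78 to 167 of both coding sequences counted from the start codon, from GENCODE M21 transcripts, 5′ to 3′, with capitals where the paralogs differ.
Pot1a: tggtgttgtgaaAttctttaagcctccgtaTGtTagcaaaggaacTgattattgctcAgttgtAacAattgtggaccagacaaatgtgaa
Pot1b: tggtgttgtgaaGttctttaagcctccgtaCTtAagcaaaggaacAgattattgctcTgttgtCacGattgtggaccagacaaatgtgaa
Even here 8 of 90 bases differed. A second pair, bases 947 to 1036, shows the stretch where they are least alike, with 30 of 90 bases different.
Pot1a: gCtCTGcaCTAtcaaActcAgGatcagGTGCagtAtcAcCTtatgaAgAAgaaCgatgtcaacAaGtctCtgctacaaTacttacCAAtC
Pot1b: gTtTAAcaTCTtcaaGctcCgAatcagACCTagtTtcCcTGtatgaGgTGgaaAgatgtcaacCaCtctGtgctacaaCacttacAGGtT
Over 1917 aligned coding bases the identity was 78.8%, and the longest run without a difference was 41 bases. Of all 36-base words in Pot1b transcripts, 3.72% also occurred in a transcript of any other gene on either strand, and of those in Pot1a transcripts 0.832%. These shares cover all other genes, with 197 words for Pot1b and 71 for Pot1a, so at most 71 can be common to the paralogs. The read length is not given in the sources used here.

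The H/ACA genes of telomerase ranged more widely over the libraries labelled G3 PGC1aOE than over those labelled G3, a difference in spread that was not tested. Dkc1, mutated in dyskeratosis congenita, had 155, 170, 180 and 190 reads in G3 1 to 4 and 177, 91 and 231 reads in G3 PGC1aOE 1 to 3, or 14.1, 12.6, 16.1 and 14.3 CPM against 13.7, 6.63 and 17.0 CPM. G3 PGC1aOE 2 was below all other libraries and G3 PGC1aOE 3 above them. Dkc1 thus had a log2 fold change of −0.20 (interval −0.85 to 0.46; edgeR, adjusted p = 0.888), which turned to 0.11 when G3 PGC1aOE 2 was left out.

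Nop10 went the other way in that library. It had 37.8, 45.3, 39.6 and 53.7 CPM in G3 and 33.2, 71.9 and 89.2 CPM in G3 PGC1aOE. The lowest and both highest libraries were labelled G3 PGC1aOE, and Nop10 had a log2 fold change of 0.55 (SE 0.31, interval −0.13 to 1.24; edgeR, adjusted p = 0.847; exact permutation p = 0.343). Leaving out G3 PGC1aOE 1 gave 0.86 (adjusted p = 0.119), and leaving out G3 PGC1aOE 3 gave 0.25. Over all tested genes of up to 1304 bases, the class that holds Nop10, the median between these groups was 0.20. The log2 CPM of Nop10 differed by −0.30 in the set coded under 80 and by 0.58 in the set from 80 upward, so the sign was not the same in both. The first value rests on G3 PGC1aOE 1 as the only G3 PGC1aOE library, and the second on G3 4 as the only G3 library.

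**Figure D3:**
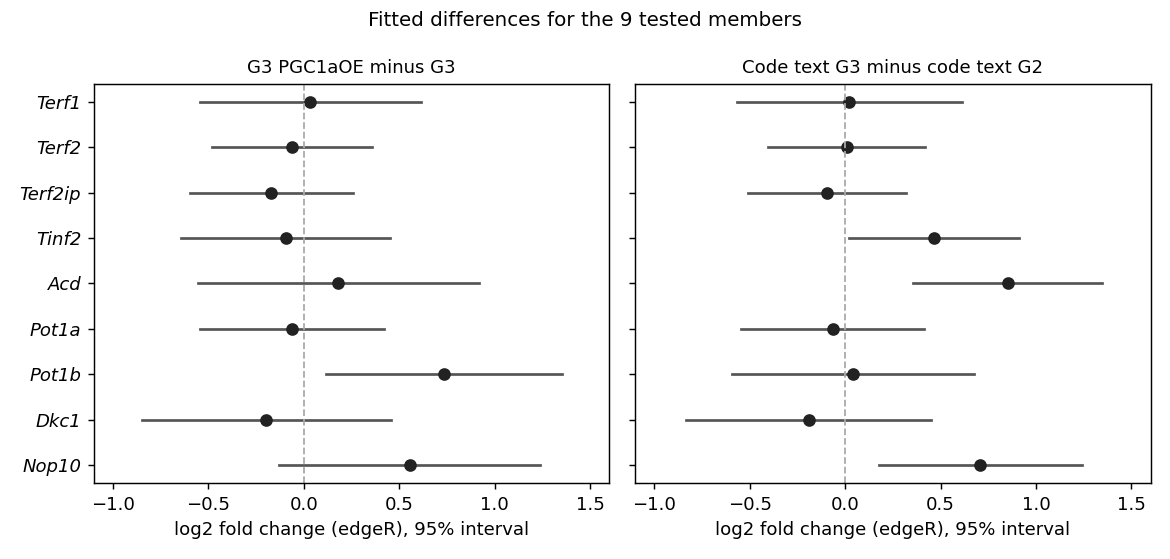
Fitted log2 fold changes with 95% intervals (edgeR) for the 9 tested members, on the left G3 PGC1aOE minus G3 and on the right libraries whose code text reads G3 minus those reading G2. On the left the interval of Pot1b alone leaves out 0 (0.12 to 1.35), and on the right those of Tinf2, Acd and Nop10 do. None had an adjusted p under 0.05.

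The code text separated some members more clearly than the labelled genotype did, as it did for genes at large. Over all tested genes, 19.9% had an unadjusted p under 0.05 (edgeR) by code text, against 4.32% by label. The comparison by code text was added after the values had been seen, with genotype label kept as a term in the fit. Acd stood at 4.92, 6.28 and 5.82 CPM in the 3 libraries whose code reads G2 and at 10.5, 9.77, 12.0 and 8.98 CPM in the 4 whose code reads G3, with no overlap and a fitted fold of 1.80 (95% interval 1.28 to 2.54; edgeR, adjusted p = 0.0997). Nop10 stood at 36.9 ± 3.31 CPM (SD, n = 3) and 65.0 ± 19.6 CPM (SD, n = 4), a fold of 1.63 (1.13 to 2.36; adjusted p = 0.15). Tinf2 stood at 8.69 ± 0.82 CPM (SD, n = 3) and 11.9 ± 1.47 CPM (SD, n = 4), a fold of 1.38 (1.01 to 1.88; adjusted p = 0.236). The differences for Acd were 0.85 in log2 CPM within the label G3 and 0.82 within G3 PGC1aOE, those for Tinf2 0.62 and 0.22, and those for Nop10 0.35 and 1.27. These genes did not overlap by code text in CPM, which fixes the sign of each of these differences. Within G3 PGC1aOE they rest on G3 PGC1aOE 1 as the only library whose code reads G2.

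No member passed in this comparison either, where 42 of 12674 genes were called (0.331%) and 19.9% had an unadjusted p under 0.05, as 3 of the 9 members did. That count fell to 0 without G3 PGC1aOE 1 and to 0 without G3 PGC1aOE 3. In TMM-scaled CPM, Acd, Nop10 and Tinf2 were higher without overlap, 3 of 9 members, beside 10.8% of all tested genes, and none was lower without overlap, beside 11.4%. In deposited FPKM Acd and Nop10 did not overlap by code text either, while Tinf2 did, with G3 PGC1aOE 3 (code text G3) at 4.99 FPKM below G3 3 at 5.29 and G3 PGC1aOE 1 at 5.82 FPKM (code text G2). Terf1, Terf2, Terf2ip and Pot1a had fitted differences between −0.095 and 0.022, Pot1b had 0.043 and Dkc1 had −0.19. Without G3 PGC1aOE 1 the difference for Nop10 fell from 0.71 to 0.35 (edgeR, adjusted p = 0.818). Gene length and base composition moved with the code text over all genes, and in the same direction with the labelled group. By code text the median log2 difference was 0.26 for genes up to 1304 bases and −0.21 for genes of 2907 bases and longer, and it was 0.25 for transcripts with 54.6% G and C or more and −0.20 for those with 44.9% or less. Between G3 PGC1aOE and G3 the same classes had medians of 0.20 and −0.14 by length and of 0.11 and −0.053 by base composition. Nop10, at 1109 bases, and Dkc1, at 862 bases, both belong to the shortest class, Nop10 with a difference of 0.71 and Dkc1 with −0.19 by code text. The deposited length places Dkc1 there, while its longest M21 transcript has 2804 bases. By base composition, Acd, at 57.0% G and C, belongs to the richest class and Dkc1, at 43.6%, to the poorest, whose median by code text was −0.20. Gmpr2, which overlaps Tinf2, was higher without overlap too in TMM-scaled CPM, at 9.60 ± 0.13 CPM (SD, n = 3) where the code reads G2 and 13.2 ± 2.51 CPM (SD, n = 4) where it reads G3, but in FPKM G3 4 (code text G3) at 6.01 lay below all 3 libraries of code text G2. Summed endothelial markers did not overlap by code text, at 385 to 458 CPM where it reads G2 and 467 to 597 CPM where it reads G3, while the other marker lists overlapped. The part of these properties in the 3 differences by code text, and in the differences between the labelled groups, was not tested.

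Over all 7 libraries regardless of label, 4 shelterin genes were among the least variable of their level. The SD of log2 CPM was 0.11 for Terf2, 0.15 for Terf2ip, 0.16 for Pot1a and 0.17 for Terf1. Among tested genes within 0.25 log2 CPM of each, the median SD was 0.32, 0.32, 0.34 and 0.42, and 0.866%, 5.74%, 3.88% and 2.30% of those genes had a lower SD. Counting error alone at their mean counts comes to 0.10, 0.10, 0.14 and 0.20, so for Terf2, Pot1a and Terf1 the observed spread was close to that of read counting. Acd at 0.48, Dkc1 at 0.45 and Nop10 at 0.52 were more variable than 74.1%, 75.6% and 84.6% of genes of like level, and Pot1b at 0.43 and Tinf2 at 0.28 lay between.

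**Figure D4:**
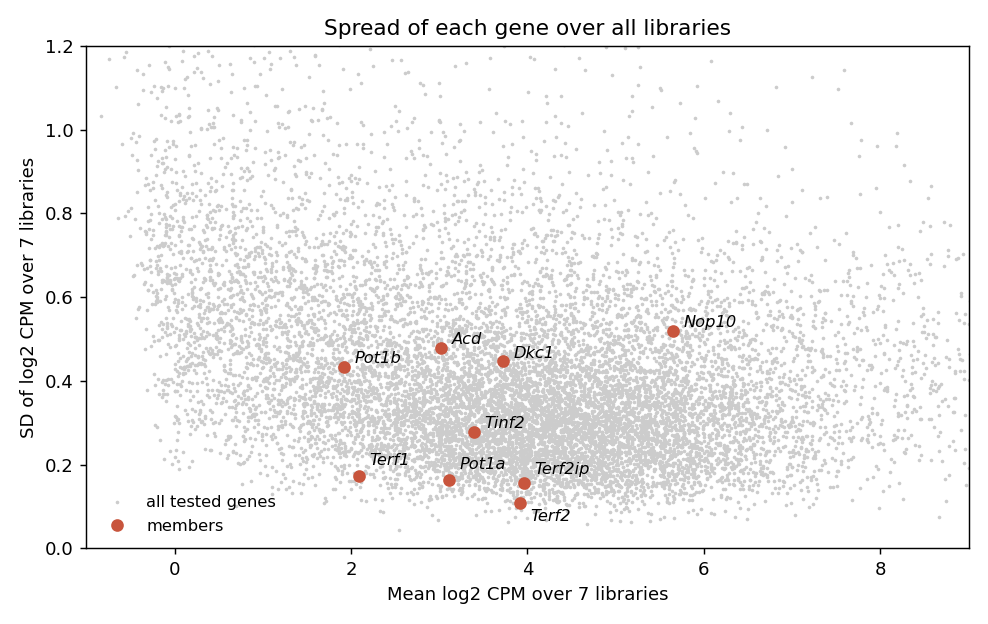
SD of log2 CPM over 7 libraries against mean log2 CPM for all tested genes (grey) and the 9 tested members (red), with 420 genes outside the axes. Terf1, Terf2, Terf2ip and Pot1a lie at the lower edge, from 0.11 to 0.17, and Acd, Dkc1 and Nop10 lie above the middle of genes of like level.

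The genes whose profile over the 7 libraries was nearest to the mean of the 7 shelterin genes were Rbm5, Mta2 and Pbx2, with root mean square differences of 0.045, 0.048 and 0.052 in centred log2 CPM. That shelterin mean itself departed from its average by 0.12. Nearest to the mean of Dkc1 and Nop10 were Trim13, Atg5 and Ran, with 0.061, 0.074 and 0.074. These were chosen from 10127 genes over 7 libraries and are given as a description.

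Other genes of telomere maintenance did not pass the test between the labelled groups either. Of 35 listed genes, all tested, 0 were called, 13 had a fitted difference above 0 and 22 below, with a median log2 fold change of −0.073. The 4 of smallest p were Mre11a, Rif1, Rtel1 and Tnks2. Mre11a, the nuclease of the complex that senses DNA ends, had 7.48, 7.09, 9.15 and 8.42 CPM in G3 and 6.99, 4.88 and 5.74 CPM in G3 PGC1aOE. Its groups did not overlap, as in 2.39% of all tested genes on the lower side, and the fitted log2 difference came to −0.45 (SE 0.24; edgeR, adjusted p = 0.847). Rif1, a regulator of replication timing and end resection, had −0.37, the helicase gene Rtel1 had 0.33 and the tankyrase gene Tnks2 had −0.30. Each had an adjusted p of 0.847 (edgeR). Rif1 had 9.68 CPM in G3 PGC1aOE 2, while G3 PGC1aOE 1 and 3, both at 21.1 CPM, lay inside the G3 range of 20.2 to 25.9 CPM. Tnks2 was lowest in G3 PGC1aOE 2 too, at 39.4 CPM. Its 68.2 and 57.5 CPM in G3 PGC1aOE 1 and 3 lay inside the G3 range of 55.9 to 86.8 CPM.

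By role, the CST complex, which fills in the telomeric C strand, had 2 of 3 genes above 0 (median 0.16). Shelterin partners and end-processing genes had 7 of 17 above 0 (median −0.099). H/ACA and telomerase assembly genes had 4 of 10 above 0 (median −0.022), with Nhp2 at 0.32 and Gar1 at −0.011, the proteins that complete the particle with Dkc1 and Nop10. All 5 genes of telomeric RNA and chromatin, among them Atrx at −0.31 and its partner Daxx at −0.24, lay below 0 (median −0.099). The same measure over all tested genes was above 0 in 50.9%.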

How the data were processed

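Left ventricular RNA of 7 libraries was analysed. The upstream tools were CASAVA and Bowtie 0.12.2 on the mm9 build, per the submitters' processing notes. What program counted reads, on which annotation and with what strand setting is not given in the sources used here. The authors deposited whole-number read counts per Ensembl gene and FPKM values, which equal those counts over the library total and 1 length per gene. Symbols matched 21748 of 22027 identifiers. GENCODE M21, a later build, gave names, overlaps, sequences, the alternative gene lengths and the base composition of each gene's longest transcript. Length classes used the lengths implied by the deposited FPKM. Members and gene lists were chosen with earlier results of these data known.

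Counts were filtered with filterByExpr, scaled by TMM and tested with edgeR 4.0.16 (R 4.3.3), quasi-likelihood, 2-sided, robust, group as the only term, with Benjamini-Hochberg adjustment over 12674 genes at 0.05. CPM uses TMM-scaled totals, except in the detection floor of Tert, and log2 CPM a prior count of 2. Permutation tests covered all 35 splits of absolute mean differences. Named genes were all members, Ppargc1a, the 4 other telomere genes of smallest p, and the 3 genes of nearest profile. Carmil2, Gmpr2, Ten1 and the genes named by role (Nhp2, Gar1, Atrx and Daxx) were chosen after their values were seen. Alternatives used RLE or upper quartile scaling, other filters, DESeq2 1.42.0, limma 3.58.1 (voom, or log2 FPKM with pseudocounts of 1 and 0.1), code covariates, omission of mitochondrial genes, a block for the replicate number, and leaving out single libraries. The edgeR fit was tested on simulated data.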

Additional observations from a re-analysis of the deposited data

How the results depend on the processing

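Under all 20 alternatives, 0 members and 0 of the 35 other telomere genes were called. Over all genes the count was 0 except with DESeq2 (3) and with the replicate block (4). The log2 fold change of Pot1b stayed above 0 in all 20, from 0.32 to 0.91 (0.60 to 0.91 with 1 library left out), with adjusted p from 0.296 to 1, and that of Nop10 from 0.12 to 0.86. The shelterin median ran from −0.17 to 0.037. Signs turned for differences near 0: Terf1 had −0.12 with voom, −0.055 with log2(FPKM + 1) with or without a filter and −0.087 with log2(FPKM + 0.1), Acd had −0.11 with the code number as covariate, and with the replicate block Tinf2 had 0.037 and Pot1a 4.79e-05. With each library left out, Terf1 ran from −0.092 to 0.16, Terf2 from −0.10 to 0.011, Tinf2 from −0.22 to 0.018, Acd from −0.091 to 0.41, Pot1a from −0.13 to 0.0045 and Dkc1 from −0.49 to 0.11. The cause was not tested.

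For the code text, 72 genes were called without the genotype term, in which fit Terf2 had −0.00047, and 0 to 177 with 1 library left out. There Terf1 ran from −0.062 to 0.11, Terf2 from −0.096 to 0.073, Pot1a from −0.17 to 0.028, Pot1b from −0.053 to 0.22, Acd from 0.77 to 0.94, Tinf2 from 0.36 to 0.62, Nop10 from 0.35 to 0.87 and Dkc1 from −0.46 to −0.0098. For replicate numbers 1 to 3 the correlations of deviations between the groups were 0.46, 0.12 and −0.086, and 2 of 3 G3 libraries correlated best with their own number. Whether these numbers pair the libraries cannot be told, because numbers 1 and 2 join libraries of like code text and number 3 does not. With the replicate block, which leaves out G3 4, Pot1b had 0.73 (adjusted p = 0.55). Depth limits Terf1 and Pot1b, at means of 52.6 and 48.9 reads.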

Other observations

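Ppargc1a also divided by the code text, a split noticed after its values were seen. It measured 94.7, 118 and 103 CPM where the code reads G2 and 56.8, 86.7, 43.9 and 58.1 CPM where it reads G3, with no overlap, a fold of 0.594 (95% interval 0.419 to 0.843; edgeR, adjusted p = 0.129). Values without overlap on the lower side were found in 11.4% of all tested genes. Among the other telomere genes, Ten1 of the CST complex had the largest upward difference, 0.88 on the log2 scale (edgeR, adjusted p = 0.132). Atrx differed by −0.72 (edgeR, adjusted p = 0.1). Of the 35, 4 lay without overlap on each side, beside 10.8% of all tested genes on the higher side and 11.4% on the lower.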
